A study of Macaca mulatta with 304 samples.

Results

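Cytosolic ribosomal protein genes encode the protein part of the ribosome, the particle that reads messenger RNA and joins amino acids. The members described here were the symbols of the count table that begin with RPL (large subunit) or RPS (small subunit) and a digit, together with RPSA, RPLP0, RPLP1 and RPLP2. Kinases of RPS6, RPS4Y genes, RPS27L and RPS19BP1 were left out. Of 21070 genes in the table, 81 symbols met this rule, and 77 of them (48 of the large and 29 of the small subunit) reached 3 counts in no fewer than 80% of samples. RPL10L, RPL3L and RPL39L were among the 4 below it. In all, 13751 genes passed the same filter and were tested.

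Cells keep ribosomal proteins in near equal amounts and tune their production together. Many of the messages begin with a run of pyrimidines (C and T) at the start of transcription, through which the kinase mTOR and the binding protein LARP1 control their translation. In blood these messages are abundant in lymphocytes and in young red cells (reticulocytes), and scarce in mature neutrophils. Loss of a copy of several of the genes causes Diamond-Blackfan anaemia, and free RPL5 and RPL11 bind MDM2 and so release p53.

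Whole blood RNA came from 28 rhesus macaques (14 females and 14 males) whose upper thorax was irradiated with 9.8 Gy (LD, 12 animals) or 10.7 Gy (HD, 16 animals). Controls were draws of the same animals on Day -2, at hand for 24 animals, and no later samples of unirradiated animals were among those analysed here. Of the samples 24 were controls, 95 fell on medium (after Day 21 to Day 90) and 53 on late (after Day 90) time points, and the rest on early ones (Day 3 to 21). The methods give adult animals of a Chinese sub-strain, aged 3 to 5 years, with analgesics in the weeks after exposure and dexamethasone for animals that breathed fast, which the labels do not give per sample, so age, time and medication cannot be told apart from irradiation here. Late samples came from 16 animals, 14 of them with a control.

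Total counts ranged from 2840219 to 23638161 per sample (median 8227563). The labels carry a library number whose meaning is not stated in the sources used here, and libraries were sorted by it into series A and B, which are ranges of the number, and series C, in which it is 0 throughout. Controls were 20 libraries of series A and 4 of series C, whereas all medium and late libraries were of series B or C. Series and time therefore cannot be told apart in most comparisons with control, and a comparison inside series C is given for that reason. Markers of B cells (10 genes), T cells (11), neutrophils (12), red cells (13) and platelets (7) were all detected, as whole blood should hold.

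The windows around the annotated start sites of the members the results turn on show which of them hold a pyrimidine run near the start. Each line holds 30 bases of Mmul_10, of which 15 lie upstream of the annotated start, on the strand of the gene. Capitals mark a run of at least 8 letters that are C or T.
RPL26 (chr16:8164470-8164499): TCTTTTCCCTTTTgcggccatcaccgaagt
RPS24 (chr9:59787262-59787291): agcttcaatcaggcatcgccgcggtcagcc
RPS15A (chr20:17633362-17633391): cctcccaggcggtccctgtttttgccggtc
RPL10A (chr4:134021794-134021823): gcaaactgtactagTCTCTTTTCCggttag
RPS16 (chr19:38690536-38690565): gcggccagggtggccccgagCTTCCCTTTT
RPS15 (chr19:1230466-1230495): gttcgccgccgggaaagcggaagcgcgtgt
RPS27A (chr7:127585580-127585609): tagaaaaccaagtgaCTTCCTTTTCgatcc

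Such a run on the gene's own strand was found in 34 of 77 members (44.2%) and in 1715 of all 13751 tested genes (12.5%). A missing run says only that these letters are not in this window. A run that is present need not open the message, since it can lie on either side of the annotated start. The run of RPL26 lies wholly upstream of it. Members with and without the run had close median log2 fold changes, 0.36 and 0.37 at early time points, and -0.51 and -0.51 at late time points.

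The members also differed in base composition, from 43.8% G or C in the exons of RPL22 to 64.5% in those of RPS15 (median 50.6%, against 50.1% for all tested genes). The first 90 coding bases are shown for 2 members from the top of the early order (RPL26 and RPS24) and for 2 of high GC content from near the bottom of the late order (RPS16 and RPS15), to show how far members differ. RPL10A, the lowest member at late time points, is near the middle, with 51.5% G or C in its exons. Capitals mark G and C, which make up 45.3%, 43.9%, 57.1% and 62.1% of the whole coding sequences. The positions given are those of the whole genes with their introns, not of the 90 bases.
RPL26 (chr16:8157663-8164484, minus strand): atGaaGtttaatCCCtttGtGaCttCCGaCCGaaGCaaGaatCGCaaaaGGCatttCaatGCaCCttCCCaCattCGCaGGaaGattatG
RPS24 (chr9:59780118-59787276, minus strand): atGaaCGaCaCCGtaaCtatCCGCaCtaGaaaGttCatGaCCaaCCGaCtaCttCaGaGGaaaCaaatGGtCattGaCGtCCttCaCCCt
RPS16 (chr19:38687743-38690550, minus strand): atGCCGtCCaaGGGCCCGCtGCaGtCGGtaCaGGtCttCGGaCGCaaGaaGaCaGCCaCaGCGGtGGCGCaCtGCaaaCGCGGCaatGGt
RPS15 (chr19:1230481-1233327, plus strand): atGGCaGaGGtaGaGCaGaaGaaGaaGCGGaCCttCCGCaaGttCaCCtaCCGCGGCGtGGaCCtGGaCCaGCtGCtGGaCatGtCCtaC

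In control samples the 77 members took between 1.05% and 4.21% of the counts (median 2.26%, 24 samples). Per kilobase of exon, the median control level was highest for RPL13 (937 CPM per kb), RPL18 (907 CPM per kb) and RPL10 (863 CPM per kb), which are all proteins of the large subunit. It was lowest for the paralog RPL26L1 (2.99 CPM per kb), RPL37A (6.05 CPM per kb) and RPS27A (7.58 CPM per kb). The levels spanned 314-fold, from RPL13 down to the paralog RPL26L1. Apart from the paralogs, RPL37A and RPS27A, the lowest was RPL37 (58.9 CPM per kb). RPL37A and RPS27A are each annotated on 1 exon in this assembly (chr5:97312670-97313033 and chr7:127585595-127586135), so their values belong to these loci and may not be those of the genes with introns. For 66 of the 77 members the annotation holds at least 1 other locus with the same product name, among them 28 for RPS2 and 23 for RPL7A. How reads that match several loci were counted is not stated, and levels and changes of these members are uncertain to that extent. RPS6, RPS3A and RPL36A were not analysed here.

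The share of counts on the members followed time. Its median was 2.26% in control, 2.49% at early, 1.88% at medium and 1.23% at late time points. On Day 21 it lay between 2.21% and 3.32% (28 samples), the narrowest band of the early days. On Day 210 it lay between 0.756% and 1.13% (6 samples), where the highest value was near the lowest control sample. Within series C the means were 1.75% ± 0.40 (SD, n = 4 samples) in control, 2.37% ± 0.43 (n = 24) early, 1.86% ± 0.60 (n = 76) medium and 1.23% ± 0.50 (n = 46) late. Within series B they were 2.74% ± 0.30 (n = 8) early, 2.20% ± 0.49 (n = 19) medium and 2.11% ± 1.11 (n = 7) late. The 7 late samples of series B ranged from 0.636% to 3.58%, so they reached above and below most samples of the other windows.

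**Figure D1:**
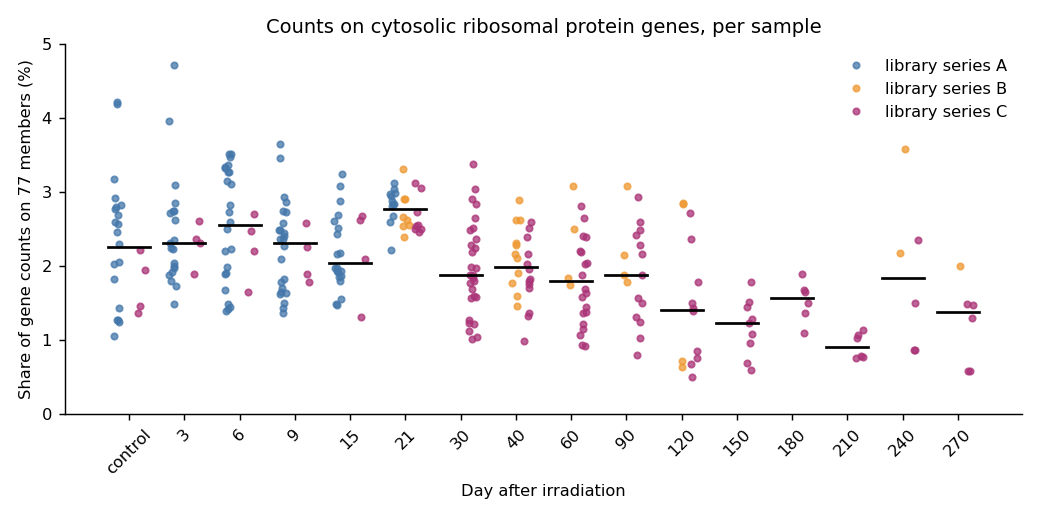
Share of all gene counts that fell on the 77 members (%) in each sample, by day after irradiation and coloured by library series, with a bar at the median of the day. Days with 1 sample are left out of the plot; the 28 samples of Day 21 sit in a narrow band around 2.77% and the 6 samples of Day 210 around 0.907%.

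Early time points were compared with each animal's own control in 24 animals, which asks how the blood changed in the weeks after exposure. The members were higher, by a median log2 fold change of 0.37, where the median of all tested genes was -0.03. The log2 fold change was above 0 for 76 of 77 members. Under the rule for "called" used below (edgeR's quasi-likelihood test, adjusted p up to 0.05, fold change from 1.5 upward), 19 members were higher and 0 lower. Of all tested genes 5.79% were called higher and 1.75% lower. By the adjusted p alone 48 members were higher and 0 lower, against 21.1% and 27.9% of all tested genes. The large and small subunits gave 13 of 48 and 6 of 29 called members, with medians of 0.38 and 0.36.

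RPL26, a large subunit protein that also binds the message of p53, had the highest fold change. Its lowest, median and highest levels were 13.1, 60.4 and 201 CPM in controls and 83.95, 120.7 and 212 CPM at early time points. Controls reached as high as early samples, but no early value came near the lowest controls. Its log2 fold change was 1.07 ± 0.24 (SE, edgeR adjusted p = 6.1e-04), and 17 of 24 animals were higher. RPS24, a small subunit protein mutated in Diamond-Blackfan anaemia, went from 16.6, 98.7 and 266 CPM to 123.05, 205.2 and 393 CPM, a log2 fold change of 1.06 ± 0.20 (edgeR adjusted p = 1.0e-04). It was higher in 18 of 24 animals, and the groups overlapped. RPS15A, another small subunit protein, had a log2 fold change of 0.82, and the large subunit proteins RPL34 and RPL21 had 0.80 and 0.75. RPS27A, which is made as a fusion with ubiquitin, was at 1.44, 4.10 and 10.9 CPM in control and at 4.31, 6.75 and 14.7 CPM early. It was higher in 20 of 24 animals, with a log2 fold change of 0.75 ± 0.17 (edgeR adjusted p = 5.9e-04).

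At the other end, RPL37A (-0.04), RPS16 (0.00), RPL13A (0.02) and RPL8 (0.02) had log2 fold changes near 0 and were not called. RPS16, a small subunit protein that touches the bound transfer RNA, stood at 169.8, 369 and 651 CPM in control and 258.5, 351 and 551 CPM early, and 12 of 24 animals were higher. Of the stalk proteins, which recruit translation factors, RPLP1 had a log2 fold change of 0.43 ± 0.14 (edgeR adjusted p = 0.014), RPLP0 had 0.27 ± 0.10 (edgeR adjusted p = 0.031) and RPLP2 had 0.12 ± 0.08 (edgeR adjusted p = 0.23). RPSA, the laminin receptor precursor of the small subunit, had 0.30 ± 0.08, and RPS19, the gene most often mutated in Diamond-Blackfan anaemia, had 0.37 ± 0.11. None of these reached the fold limit.

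Of 12 members known to bind MDM2, 6 were called higher (median log2 fold change 0.57), where 19 of all 77 members and 5.79% of all tested genes were. RPL5 and RPL11, which form a complex with the small ribosomal RNA of the large subunit, had log2 fold changes of 0.47 and 0.49 and were not called. Of 19 Diamond-Blackfan genes 6 were called higher (median 0.48), a share close to that of all members. Of the 4 paralogs past the filter, RPL22L1 was called higher (0.61 ± 0.16, edgeR adjusted p = 0.0019), RPL36AL and RPL26L1 passed only the adjusted p (0.56 and 0.39), and RPL7L1, a nuclear relative of RPL7, had 0.04.

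The spread between animals differed by day. Over the 24 control samples the mean of the members' log2 CPM had an SD of 0.60. From Day 3 to Day 15 it lay between 0.34 and 0.52, and Day 21 had 0.18 (28 samples). Later it ranged from 0.20 (Day 210) to 0.67 (Day 120). The median SD of single members was 0.65 in control and 0.30 on Day 21, against 0.39 and 0.31 for all tested genes. For 9 of 24 animals the summed level of the members was lower at early time points than in their control. Without the animal as a block, 5 members were called higher in place of 19. With Day 21 left out 11 were called, and with samples of the same library series as the control 17.

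Markers of other cells moved in the same weeks. Of 13 red cell markers 12 were called higher (median log2 fold change 1.66), and their summed level ranged from 1953 to 13210 CPM in control and from 7406 to 41970 CPM early. Of 10 B cell markers 9 were called lower (median -0.995), and 0 of 11 T cell markers were called (median 0.02). Of 7 platelet markers 6 were called higher (median 0.62), and of 9 monocyte markers 2 were called higher and 6 passed the adjusted p alone (median 0.49). The part of these cells in the members' higher values was not tested. In bulk blood, fewer cells of a type and less RNA per cell cannot be told apart.

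The fold change followed GC content among the members. At early time points, 16 of 33 members with under 50% GC were called higher (median log2 fold change 0.56), 2 of 23 with 50 to 55% (median 0.36) and 1 of 21 with more than 55% (median 0.13). Other genes in the same ranges had medians of 0.06, -0.08 and -0.13, so the members lay higher in each range. Across the 77 members the correlation of GC content with log2 fold change was -0.54 (Pearson, a description across genes of the same libraries), and across the 13674 other genes -0.26. With the trend of each library on GC content removed, 21 members were called higher. GC content also goes with transcript choice and library chemistry, and their part was not tested.

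**Figure D2:**
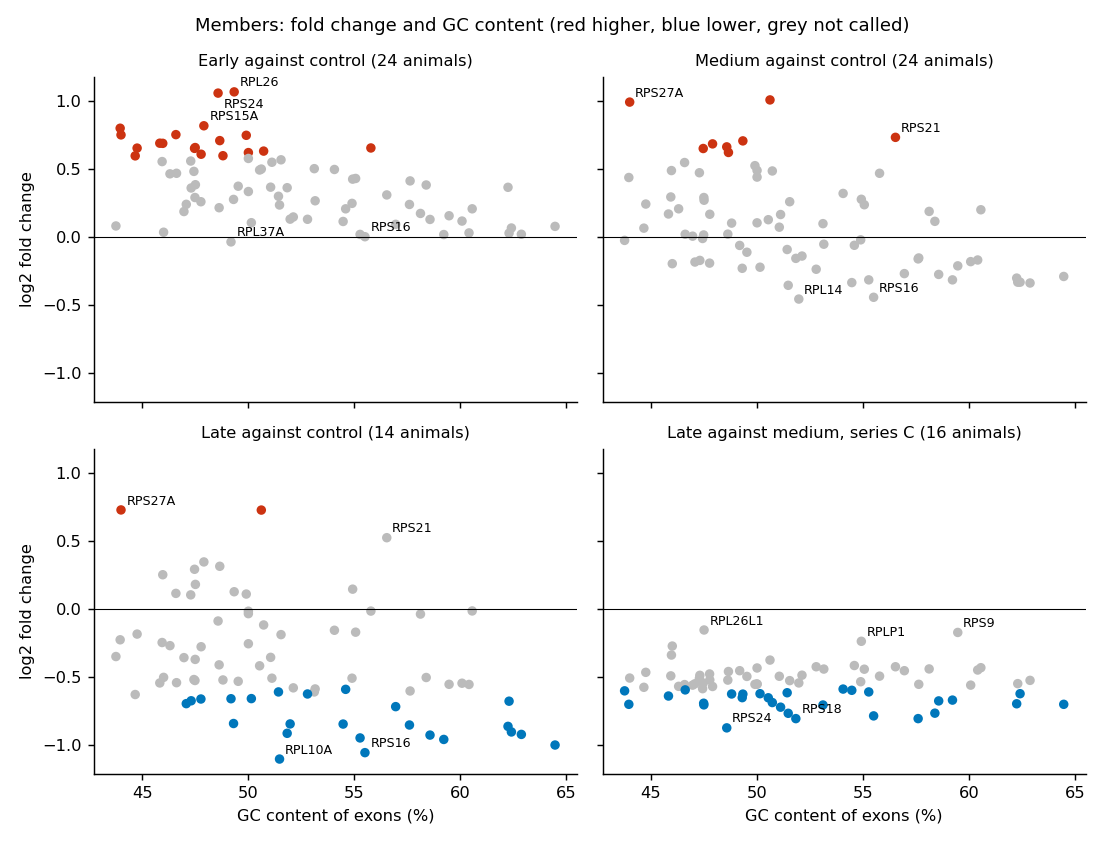
Log2 fold change of each of the 77 members (vertical axis) against the GC content of its exons (horizontal axis, %) in 4 comparisons, with called members in red (higher) or blue (lower). At early time points 16 of the 19 called members have under 50% GC, 2 have 50 to 55% and 1 has more than 55%. Within series C late against medium all 77 lie below 0 at every GC content.

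At medium time points (24 animals) the members divided. The median log2 fold change was 0.02, beside -0.02 for all tested genes, and 42 members were above 0. Called higher were 8 members and lower 0, against 4.48% and 1.27% of all tested genes. By the adjusted p alone 13 were higher and 14 lower, against 19.9% and 25.4%. Small subunit genes made up 7 of the 8, among them RPS27A, RPS21, RPS15A, RPS24, RPS29 and RPS7, and RPL26 was called too.

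RPS27A was at 1.44, 4.10 and 10.9 CPM in control and at 3.895, 9.74 and 15.001 CPM at medium time points, with overlapping ranges. It was higher in 20 of 24 animals, by a log2 fold change of 0.99 ± 0.22 (edgeR adjusted p = 5.9e-04), and RPS21, a small protein of the small subunit, had 0.73 ± 0.14 (edgeR adjusted p = 1.1e-04). RPL26 (0.71) and RPS15A (0.69) followed.

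Lowest were RPL14 with a log2 fold change of -0.46 ± 0.11 (edgeR adjusted p = 0.0015), RPS16 with -0.44, RPL10A with -0.35, RPL8 with -0.34 and RPL3 with -0.33. RPL3 forms part of the peptidyl transferase centre. All 5 passed the adjusted p and none the fold limit. RPS19 (-0.30) and RPL7L1 (-0.20) also passed the adjusted p alone. RPSA, RPLP0, RPLP1, RPLP2, RPL5, RPL11, RPL22L1, RPL26L1 and RPL36AL did not pass it. The split again ran along GC content, with medians of 0.17 under 50% and -0.21 over 55%, and 10 of the 14 lower members had more than 55% GC. Of the cell markers, 10 of 13 of red cells (median log2 fold change 0.79) and 5 of 12 of neutrophils (median 0.35) were called higher and 6 of 10 of B cells lower (median -0.60), and 8 of 11 of T cells were lower by the adjusted p alone (median -0.42). Their part in the members' values was not tested.

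Library series weighed on this comparison. In the 4 animals with a control of series C, all HD, comparison within series C gave 37 members higher, 0 lower and a median log2 fold change of 0.60, where all tested genes had -0.04. That fit called 1181 of all 13751 tested genes in either direction. These 4 controls held a lower share of member counts (1.37 to 2.21%) than the median of series A (2.51%). Series, dose and the choice of animals cannot be told apart there. Without the Day 40 library of HD animal B2007, which held 347700 CPM of red cell markers, the comparison called 6 members higher and 0 lower. Of all tested genes 725 were then called in either direction.

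**Figure D3:**
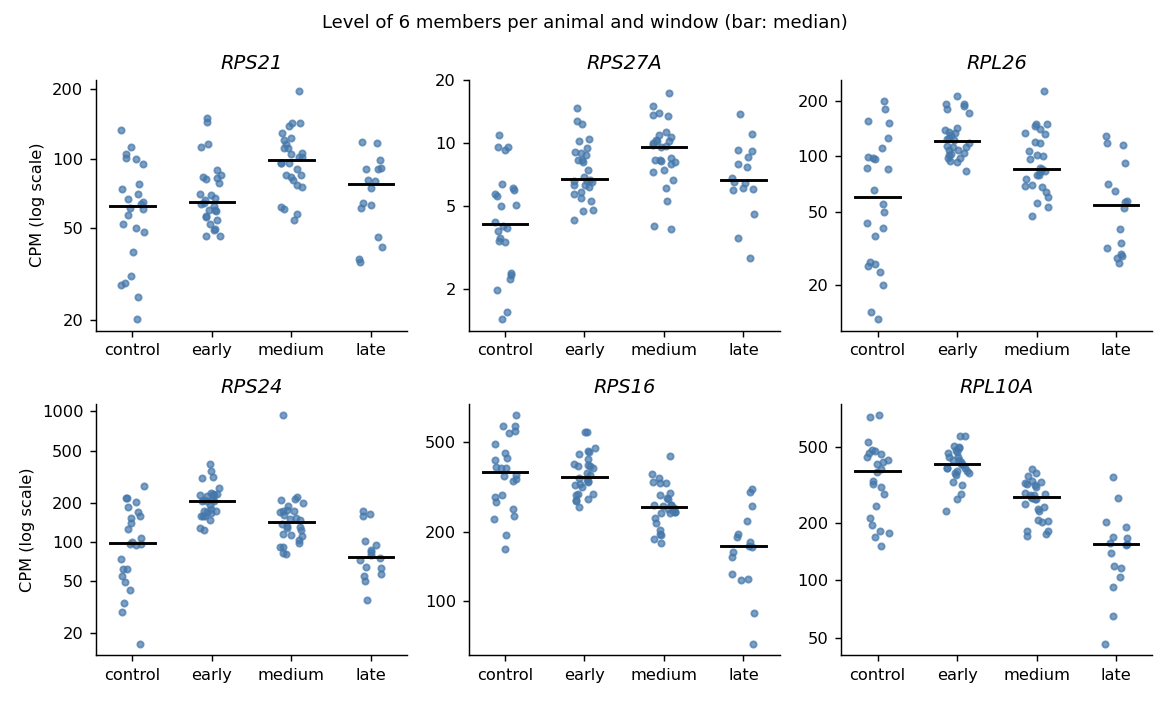
Level (CPM, log scale) of RPS21, RPS27A, RPL26, RPS24, RPS16 and RPL10A in each animal, summed over its samples in control (24 animals), early (28), medium (28) and late (16) windows, with a bar at the median. The medians of RPS21 and RPS27A stay above their control medians of 62.7 and 4.10 CPM in every later window, while RPS16 and RPL10A have late medians of 174 and 154 CPM, from 369 and 373.5 CPM in control.

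At late time points, 14 animals had a control. The members were lower by a median log2 fold change of -0.51, beside -0.13 for all tested genes, a difference of -0.38. Called lower were 24 members and higher 2, against 18.5% and 14.0% of all tested genes. By the adjusted p alone 34 were lower and 2 higher, against 33.5% and 21.8%. Many genes outside the members were thus called lower as well. Large subunit genes gave 14 of 48 lower calls and small subunit genes 10 of 29.

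RPL10A, the protein of the stalk by which spent transfer RNA leaves the large subunit, had the lowest fold change. Its levels were 152, 337 and 728 CPM in the 14 controls and 64.7, 154 and 347 CPM late, and 13 of 14 animals were lower. The log2 fold change was -1.10 ± 0.23 (edgeR adjusted p = 7.1e-04). RPS16 went from 169.8, 385.5 and 651 CPM to 88.8, 179 and 311 CPM, with -1.05 ± 0.19 (edgeR adjusted p = 1.7e-04) and 13 of 14 animals lower. RPS15, in the head of the small subunit, went from 192, 298 and 581 CPM to 82.1, 154 and 269 CPM, with -0.997 ± 0.18 (edgeR adjusted p = 1.8e-04). RPS15 and RPL13A (-0.95) were lower in 14 of 14 animals, and in each the ranges still overlapped between animals.

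RPS19 had a log2 fold change of -0.86 ± 0.24 (edgeR adjusted p = 0.0051), from 181, 408 and 891 CPM in control to 106.7, 222 and 397 CPM. RPSA had -0.61 ± 0.16 (edgeR adjusted p = 0.0042), just past the fold limit, and lost its call under TMM scaling, where its log2 fold change was -0.52. RPLP0 (-0.59) and RPLP2 (-0.54) passed the adjusted p alone, as did RPL7L1 (-0.50), which was lower in 14 of 14 animals. RPLP1 (0.15), RPL5 (-0.27), RPL11 (-0.42), RPL22L1 (-0.28), RPL36AL (-0.24) and RPL26L1 (0.18) did not. Of the members that bind MDM2, 3 of 12 were called lower (median -0.32), and of the Diamond-Blackfan genes 3 of 19 (median -0.25).

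RPS27A went the other way. It rose from 1.44, 3.85 and 10.9 CPM to 3.51, 6.63 and 11.1 CPM, with 0.73 ± 0.29 (edgeR adjusted p = 0.040), in 10 of 14 animals, and this call was lost when any of 9 animals was left out. In a fit over single samples with library series as a covariate, RPS27A was not called. Its log2 fold change there was 0.11. RPS21 (0.53), RPS15A (0.35) and RPS7 (0.32) had the next highest values and were not called. RPS21 was called higher under TMM scaling, with a log2 fold change of 0.62.

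Summed over the 77 members, the 14 controls ranged from 11880 to 38320 CPM and the late sums from 8150 to 21770 CPM. The 2 animals with the highest controls, LD B1006 and LD B1506, had late sums of 8150 and 10040 CPM, the lowest but for LD B1005 (9066 CPM). Of the 3 animals whose late sum was above their control, LD B1501 (13680 to 18400 CPM), LD B1004 and LD B1503 all had controls of at most 13680 CPM. Without B1006, 15 members were called lower in place of 24, and without B1501, 34. In a fit over single samples with library series as a covariate, 14 members were called lower and 0 higher, with a median of -0.36. Repeated draws of an animal are separate units in that fit, unlike in the sums per animal. With sums per animal and the GC trend removed, 14 were lower and 3 higher.

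Within series C, late and medium time points were compared in 16 animals. All series C libraries carry the library number 0, which may stand for an absent number, so it is not known whether they form a single batch. All 77 members had log2 fold changes below 0, from -0.87 to -0.15, with a median of -0.55, beside -0.18 for all tested genes. Called lower were 29 members and higher 0, against 10.8% and 8.70% of all tested genes. By the adjusted p alone 72 were lower and 0 higher, against 36.1% and 20.1%. The 5 members that did not pass were RPL26L1, RPS9, RPLP1, RPL23 and RPL37A. The SD of the log2 fold changes was 0.14 over members and 0.49 over all tested genes, so the members lay closer together than the genes at large. The correlation with GC content, across the 77 members of the same libraries, was -0.05 here. Cell markers moved as well, with 10 of 10 B cell markers (median log2 fold change -1.67) and 7 of 11 T cell markers (median -0.67) called lower, 4 of 13 red cell markers lower (median -0.48) and 11 of 12 neutrophil markers higher (median 1.37). Their part in the members' decrease was not tested.

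**Figure D4:**
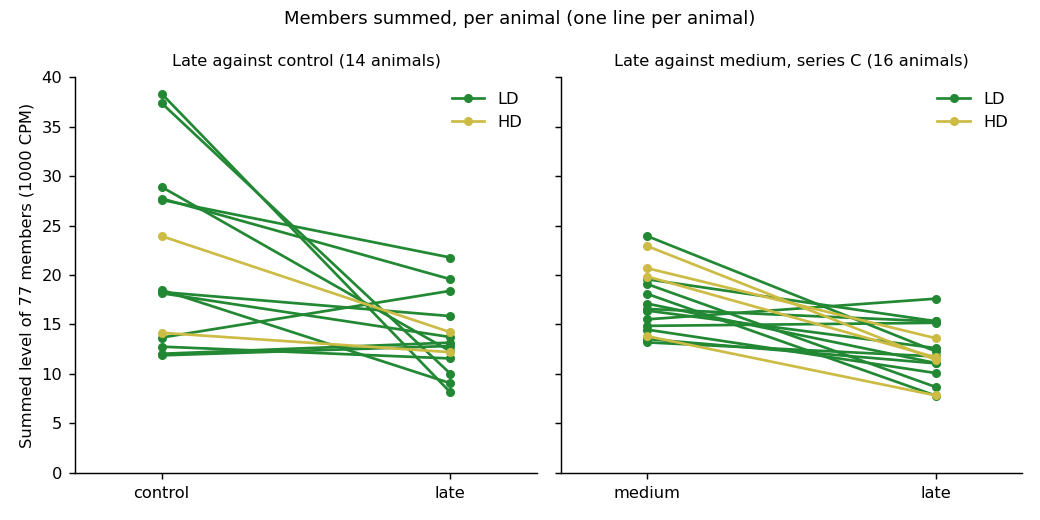
Summed level of the 77 members (1000 CPM) for each animal, joined by a line, in control and late samples (left, 14 animals) and in medium and late samples of series C (right, 16 animals), with LD in green and HD in yellow. On the right 14 of 16 lines fall, and on the left 11 of 14.

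RPS24 was the lowest member in this comparison, at 59.6, 126.4 and 211.5 CPM at medium and 34.4, 71.0 and 155 CPM at late time points. Its log2 fold change was -0.87 ± 0.17 (edgeR adjusted p = 5.0e-04), and 14 of 16 animals were lower. RPS18, at the head of the small subunit, had -0.80 ± 0.14 (edgeR adjusted p = 1.9e-04), from 173, 286 and 376 CPM to 77.0, 145 and 282 CPM. RPS14, whose loss marks the anaemia of the 5q- syndrome, had -0.80 ± 0.15 (edgeR adjusted p = 2.6e-04). RPS16 had -0.78 and RPL10A -0.76, and RPL10A was lower in 16 of 16 animals.

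RPSA was also lower in 16 of 16 animals, from 297, 405 and 660.5 CPM to 149.6, 303 and 478 CPM, with a log2 fold change of -0.61 ± 0.10 (edgeR adjusted p = 1.1e-04). RPL11 (-0.65) and RPS19 (-0.69) were called lower too. RPS27A (-0.51), RPL5 (-0.57), RPLP0 (-0.44), RPLP2 (-0.56), RPL36AL (-0.49), RPL22L1 (-0.52) and RPL7L1 (-0.27) passed the adjusted p alone. The highest were RPL26L1 (-0.15), RPS9 (-0.17), RPLP1 (-0.24), RPL7L1 and RPL23 (-0.34). RPS27A, which was above control in both windows, was thus lower late than medium by the adjusted p.

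The number of calls in this comparison changed with the processing. It was 16 under TMM scaling, 12 with DESeq2, 14 with no filter and 7 with the GC trend removed, while 70, 68, 68 and 65 members were lower by the adjusted p alone. The distance between the members' median and that of all tested genes was -0.37 under the main scaling, TMM scaling, DESeq2 and the GC offset, and -0.39 with no filter. Without Day 210, 19 members were called lower, with a median of -0.50.

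The other parts of the translation machinery gave the following counts at late time points, where 18.5% of all tested genes were called lower and 14.0% higher and their median was -0.13. Of 45 ribosome biogenesis genes 23 were called lower and 1 higher (median log2 fold change -0.61). Lowest were MDN1 (-1.19 ± 0.14, edgeR adjusted p = 4.0e-06), which strips assembly factors from the large subunit, and POLR1A (-1.12 ± 0.13, edgeR adjusted p = 4.0e-06), the largest subunit of RNA polymerase I. Highest were the processing factor RRP12 (1.02) and GAR1 (0.12). Of 29 translation factors and other messages with a pyrimidine tract, 6 were lower and 1 higher (median -0.39). The lower calls were near the 18.5% over all tested genes. By the adjusted p alone, however, 19 of the 29 were lower and 1 higher, against 33.5% and 21.8% of all tested genes. EEF1G (-0.97) and EIF3G (-0.95) were lowest, and VIM (1.07) and TPT1 (0.46, not called) highest. Of 78 mitochondrial ribosomal protein genes 24 were lower and 0 higher (median -0.41), with MRPS33 (-0.98) and MRPS9 (-0.92) lowest and MRPL47 (0.43) and MRPL41 (0.38) highest.

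Of 18 regulators of translation 2 were called lower, RPTOR (-0.73) and MTOR (-0.60), the core of the kinase complex that acts on these messages, and the median was -0.03. DDIT4 (0.36) and EIF4EBP1 (0.33) were highest and not called. Of 10 ribosome rescue genes 2 were lower (median -0.18), EDF1 (-0.90) and PELO (-0.75), with HBS1L (0.33, past the adjusted p alone) and NEMF (0.23) highest. The counts of both lists are near or below the share over all tested genes. RACK1 and FAU, ribosomal proteins under other names, had -0.55 and -0.49 and passed the adjusted p alone. In the early window 0 of the 45 biogenesis genes (median -0.05) and 0 of the 78 mitochondrial ones (median 0.06) were called, beside 19 of the 77 members. Of the 29 translation factors, 24 lay above 0 in that window (median 0.18), with 1 called higher and 14 higher by the adjusted p alone. The 3 ribosomal proteins under other names had a median of 0.39, and 1 was called higher.

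Cell markers moved with the late decrease as well. All 10 B cell markers (median log2 fold change -1.98) and 8 of 11 T cell markers (median -0.94) were called lower, and 11 of 12 neutrophil markers (median 1.28) and 7 of 7 platelet markers (median 0.95) higher. The summed T cell markers ranged from 1658 to 4189 CPM in control and from 372 to 2307 CPM late, and the summed neutrophil markers from 886 to 9033 CPM and from 4545 to 15020 CPM. The summed B cell markers ranged from 381 to 2738 CPM and from 69.7 to 630.5 CPM. Of the extremes of these lists, CD79B (-2.52), CCR7 (-1.36) and LEF1 (-1.21) were lowest, and S100A12 (2.55) and FPR2 (2.33) highest. Of 8 NK cell markers only GZMB was called (-0.89), and of 9 monocyte markers 5 were higher, with CD163 (1.62) and LYZ (1.37) at the top. Of 13 red cell markers 4 were higher and 1 lower (HBB, -1.46). The part of these cells in the decrease of the members was not tested.

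Day by day, each of 15 days with at least 6 animals was set against the controls, which are shared by all days. On at least 1 day 70 of the 77 members were called. No such count was taken over all tested genes, so it cannot be judged against them. On Day 3, 6, 9, 15 and 21, 4, 11, 7, 5 and 37 members were called, all of them higher, against 11.5%, 11.5%, 7.58%, 6.01% and 10.4% of all tested genes in either direction. Of these days, Day 21 had the highest count, with a median log2 fold change of 0.51. On Day 30, 40, 60 and 90 it was 5, 6, 4 and 3 members, against 5.90%, 6.92%, 4.23% and 7.06%. On Day 120, 150, 180 and 210 it was 18, 35, 14 and 53 members, against 31.8%, 31.5%, 18.7% and 29.8%, and 17, 35, 10 and 53 of these were lower.

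Day 240 called 2 members, both higher (all tested genes 6.76%), and Day 270 called 0 (all tested genes 0.00727%, 1 gene). On Day 270, 23 members and 4060 genes had an unadjusted p under 0.05 in the edgeR test. The median of the members was -0.83 on Day 210, 0.15 on Day 240 and -0.38 on Day 270. The same 6 animals were drawn on these days, and the share of counts on members rose from 0.774% to 2.35% in LD B1004 between Day 210 and 240 and from 0.756% to 1.499% in LD B1502, in libraries of series C. In LD B1003 and LD B1505 it rose from 1.13% to 2.18% and from 1.07% to 3.58%, with a change from series C to B. In LD B1503 it was 0.789% and then 0.861%, and in HD B2502 1.02% and then 0.857%. Both animals with little change also had the highest neutrophil marker levels of Day 240, 9787 and 14350 CPM. Their red cell markers were the highest of that day as well (32950 and 55500 CPM). Their summed B and T cell markers were the lowest (994.5 and 946.9 CPM). The part of these cells was not tested.

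RPS24 illustrates the course, with a log2 fold change of 1.46 ± 0.22 on Day 21 (edgeR adjusted p = 4.2e-06), -1.44 ± 0.26 on Day 210 (edgeR adjusted p = 0.0013) and 0.69 ± 0.31 on Day 240 (edgeR adjusted p = 0.17). RPS16 had 0.10 on Day 21, -1.42 ± 0.15 on Day 210 (edgeR adjusted p = 7.8e-05) and -0.59 on Day 240. RPL10A was called lower on 6 days. On Day 210 the members with under 50% GC had a median of -1.01 and those over 55% of -0.82, the only day on which the first group was the lower of the 2.

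**Figure D5:**
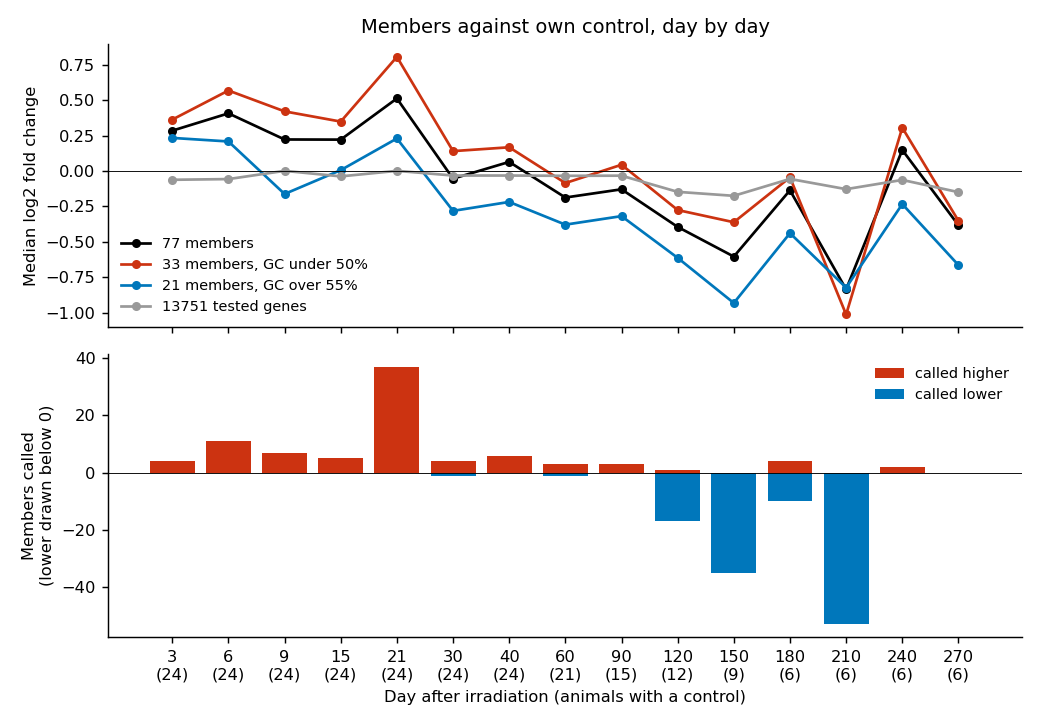
Median log2 fold change against control (upper panel) of all 77 members, of the 33 with under 50% GC, of the 21 with over 55% GC and of all 13751 tested genes, and number of members called higher or lower (lower panel), by day with the number of animals. Day 21 (37 higher) and Day 210 (53 lower) stand out, and on Day 240 the median is back above 0.

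Dose and sex were tested as a difference between the early responses of the 24 animals. In HD against LD animals 0 members and 0% of all tested genes were called (edgeR), and DESeq2 called 0 as well. At an unadjusted p under 0.05, edgeR gave 3 members and DESeq2 4. The 3 were RPL22, with a log2 difference (HD minus LD) of 0.32 ± 0.13 (edgeR adjusted p = 0.86), RPL28 with -0.41 ± 0.18 and RPL29 with -0.67 ± 0.33. Between sexes 0 members and 0% of all tested genes were called by edgeR, and 0 by DESeq2, with 0 members at an unadjusted p under 0.05 by either tool. The members' summed log2 ratio to control had a median of 0.15 (range -0.57 to 1.08) in LD and 0.23 (range -0.21 to 0.69) in HD animals, so the doses overlapped widely.

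The genes outside the list whose log2 CPM followed the members' mean most closely over the 24 control samples were NPM1 (Pearson r = 0.97), NACA (0.96), ATP5MG (0.96), EEF1B2 (0.95) and ATP5F1C (0.95). These points share library depth and scaling, and the values are a description. NPM1 and NACA had log2 fold changes of -0.56 and -0.36 at late time points, and ATP5MG had 0.20. Among the members themselves, RPL4 followed the mean of the others most closely (r = 0.98), and RPL28 (0.33) and the paralog RPL26L1 (0.36) least.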

How the data were processed

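Whole blood was kept in RNAprotect tubes, depleted of ribosomal RNA and sequenced as paired reads. The authors trimmed reads with Cutadapt 2.10, aligned them with STAR 2.7.6a to Mmul_10 and counted them with Subread 2.0.1. The strand setting and the treatment of multimapping reads are not given in the sources used here. Gene counts were deposited for 304 samples, beside a table of log2 values that the authors scaled by the upper quartile (16730 genes), which was used only as an alternative. The methods also describe conditional quantile normalization, which corrects for GC content. Whether the values of this table went through it is not clear from the sources used here.

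Counts were summed per animal and window, and genes that reached 3 counts in 80% of samples or more were tested in R 4.3.3 with edgeR 4.0.16 (quasi-likelihood test, upper quartile scaling, animal as a block), with Benjamini-Hochberg adjustment over 13751 genes. A control is 1 draw and a window the sum of several draws. Called genes had an adjusted p up to 0.05 and a fold change from 1.5 upward. CPM are counts scaled to a common library total, and log2 CPM used a prior count of 2. Each animal was its own control, as the labels give. Deviations of the same animal in control and in the window correlated over genes with a median r of 0.61 early, 0.45 medium and 0.25 late. P-values measure the spread between these animals, except in the fit with library series as a covariate. That fit used single samples, so repeated draws of an animal act as separate units in it. Counts cover gene totals of 2840219 or more per sample, and low members have wider counting error.

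Alternatives were TMM scaling, DESeq2 1.42.0, no filter, no block, limma 3.58.1 on the log2 values, library series, single animals left out, and, chosen after seeing the data, a GC offset and the omission of Day 21, Day 210 and a Day 40 library. Sequences and annotation are from RefSeq's Mmul_10. The members and lists were chosen with earlier results of these data known. Genes named are RPSA, RPS19, RPL5, RPL11, RPS27A, the stalk genes, the paralogs, the 5 highest and 5 lowest members of each window comparison, the 2 highest and 2 lowest genes of each other list at late time points, and the 5 genes most like the members over controls. Some items that the rule names are not reported here. Other members named were chosen after their values were seen. The scripts were tested on simulated data with known changes.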

Additional observations from a re-analysis of the deposited data

How the results depend on the processing

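Values are numbers of members called. The early comparison (19) gave 15 to 22 under TMM scaling, DESeq2, no filter, limma on the log2 values, the GC offset and the same library series, but 11 without Day 21. The medium comparison (8) gave 8 to 10 under TMM scaling, DESeq2, no filter and the GC offset, but 4 with limma and 37 within the library series of the control (4 animals). Without the animal as a block, the early count was 5, the medium count 5, the late count 37, late against medium 24 and the days 69. The late comparison (26) gave 18 to 34 under TMM scaling, DESeq2, no filter, limma and without Day 210, and 17 with the GC offset. With library series as a covariate, in the fit over single samples, it gave 14. Leaving out each animal gave 18 to 35. Late against medium (29) gave 16 under TMM scaling, 12 with DESeq2, 14 with no filter, 7 with the GC offset and 19 without Day 210. By the adjusted p alone these 5 gave 65 to 70 members. The causes were not tested. Of the values of single named genes, 840 kept their direction and side of the threshold, 39 lost and 25 gained a call, 30 moved with no test and 0 were reversed. The dose and sex counts stayed at 0 under TMM scaling, DESeq2 and no filter. Late HD animals with a control numbered 2, which limits any statement on dose at late time points, and members with few counts, such as RPL26L1 and RPL37A, rest on under 6 CPM in every control.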

Other observations

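Among the 4 genes below the filter were RPL10L, with at most 1 count in any sample, RPL3L, with at least 3 counts in 18 samples (5.92%) and RPL39L, in 146 samples (48.03%). RPL10L and RPL3L are known from testis and muscle.

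Over the 24 control samples the members' mean log2 CPM correlated with the mean of the T cell markers with r = 0.47, and with that of the neutrophil markers with r = -0.13. For the other lists r was 0.18 (NK cells), 0.08 (red cells), 0.045 (B cells), -0.185 (monocytes) and -0.36 (platelets). Over the 53 late samples of 16 animals r was 0.62 for T cells, 0.34 for B cells, -0.43 for neutrophils and -0.51 for platelets. For red cells it was -0.005, for NK cells 0.37 and for monocytes -0.21. These are descriptions over samples that share animals, depth and scaling.

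The members never called on any of the 15 days were RPL28, RPL32, RPL37A, RPL7L1, RPLP2, RPS26 and RPS28. RPL26 and RPS24 were called on 7 days each, 6 times higher and 1 time lower. RPS21 and RPS27A were called on 6 days each, always higher. These genes were picked after their values were seen.

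Samples drawn on days with only 1 animal gave shares of member counts from 0.630% (Day 127) to 1.88% (Day 77). Each was the last sample of its animal. The paper describes a final draw from sick animals that were euthanized between scheduled days. The medium and late windows pool these draws with those of animals followed longer, and the part of this was not tested.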
